A study of Mus musculus with 4 samples.

Results

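Il12rb2+Tbx21+ cells were barcodes from stimulated CD3+CD4+ splenocytes in which transcripts of the inducible IL-12 receptor chain and of the transcription factor T-bet were both counted. They were selected on measured values. A barcode entered the gate with at least 2000 unique molecular identifiers (UMIs, each 1 captured transcript), at least 500 genes, at most 10% mitochondrial UMIs and at least 1 UMI of Cd3e, Cd3d or Cd3g. A member also had at least 2 UMIs of Il12rb2, at least 1 of Tbx21, fewer than 2 of Egr3, none of Foxp3 or Zbtb16, and fewer than 3 of S100a4 and S100a6 together. The gate held 17969 cells and 127 of them were members, 0.707% of the gate. By library there were 42 members of 5622 gate cells (female labelled knockout), 26 of 1702 (female labelled wild-type), 32 of 6204 (male labelled knockout) and 27 of 4441 (male labelled wild-type). Values for the 4 libraries follow in that order throughout. Contrast cells met the same limits on Egr3, Foxp3, Zbtb16, S100a4 and S100a6 but had no UMI of Il12rb2 or Tbx21, and numbered 3948, 1051, 4226 and 3140.

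The study profiled CD3+CD4+ splenocytes of C57BL6/J mice by droplet sequencing of transcript 3′ ends. Mice were either Irf5-/-, lacking interferon regulatory factor 5, or WT, and each genotype gave 1 female and 1 male library. All cells had been cultured for 6 hours with anti-CD3/anti-CD28 Dynabeads, so no unstimulated library was analysed here. Age, the number of mice behind a library and the part of Irf5 that was deleted are not given in the sources used here.

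T helper type 1 differentiation starts when an activated CD4 T cell receives interferon-gamma and IL-12. Interferon-gamma induces, partly through IRF1, a family of guanylate-binding proteins (GBPs) and immunity-related GTPases that attack the vacuoles of intracellular microbes. It also helps to induce T-bet, encoded by Tbx21, and T-bet raises the IL-12 receptor beta 2 chain, encoded by Il12rb2, through which IL-12 activates STAT4 and full production of interferon-gamma.

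Il12rb2 (ENSMUSG00000018341, chr6:67291318-67376188, GRCm38) gave 111, 80, 80 and 79 UMIs in the members of the 4 libraries, and Tbx21 (ENSMUSG00000001444, chr11:97098071-97115331) gave 58, 43, 44 and 43. These 2 genes chose the cells and are described only. Of the 127 members, 76 had exactly 2 UMIs of Il12rb2 and 51 had 3 or more, up to 7. Tbx21 was at 1 UMI in 83 members and at 2 or more in 44, and 48 members sat at both minimums. Just outside the limits were 181 cells with 1 UMI of Il12rb2 and at least 1 of Tbx21, and 337 cells with at least 2 of Il12rb2 and none of Tbx21. Every member had 0 UMIs of S100a4 and S100a6, so that limit removed no cell that met the other criteria.

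Several genes that define type 1 cells were at or near 0 in the cells that the rule selected. Ifng, the type 1 cytokine, had 1 UMI in all members, and Cxcr3, the chemokine receptor of type 1 cells, had 0. A count of 0 among the 1151723 UMIs of the members allows up to 2.6 CPM (counts per 1000000 UMIs of the summed cells). Gzmb had 6 UMIs, all in 1 cell, and Eomes had 3. Cd8a was at 0 and Cd8b1, the other CD8 marker, had 13 UMIs. The 2 CD8 markers summed to 10.8, 7.85, 3.22 and 22.6 CPM in members and 9.46, 8.8, 8.98 and 8.21 in contrast cells. Cd4 was detected in 6, 9, 11 and 8 members. The 18 listed effector genes together held 440, 200.1, 119 and 139 CPM in members and 248, 259, 194 and 262 in contrast cells, so members were above contrast cells in the female knockout library alone. The cells are called Il12rb2+Tbx21+ cells below.

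The libraries held 28841161 to 55850754 UMIs, of which the members carried 254866 to 310170 per library. Droplets under 200 UMIs held 36.2% of the UMIs of the female wild-type library and 8.62% to 14.7% elsewhere. Pairs of libraries shared 2 to 13 gate barcodes and no member barcode. Irf5 went against the labels: the gate cells held 8.39, 0.86, 8.7 and 1.06 CPM of Irf5, so it was higher in both libraries labelled knockout, and members held 2, 2, 4 and 0 UMIs. A 3′ tag outside a deleted part checks nothing, so every genotype below is that of the label. In 68 other cells with B or erythroid genes and no Cd3 UMI, 7.35% had an Il12rb2 UMI and 4.41% a Tbx21 UMI, against 9.8% and 13.1% of the gate, with higher median UMIs in these other cells in each library. The other cells with an Il12rb2 UMI were 5, all from the female libraries (2 of 26 and 3 of 17, 7.69% and 17.6%, against 10.8% and 14.6% of the gate). Both male libraries had 0 (of 11 and 14, which allows up to 27.3% and 21.4%), against 8.62% and 8.33% of the gate. The numbers of other cells were too small to separate the Il12rb2 share of the gate from that background.

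Members were deeper than contrast cells in every library. Their medians were 6204, 9299, 8380.5 and 10674 UMIs, against 5149.5, 8356, 6663.5 and 9663.5. Because the rule sets a minimum count, members were also set against 5 contrast cells each of like UMI count from the same library (depth-matched cells, 635 in all). Activation differed as well: 85.7%, 96.2%, 96.9% and 96.3% of members and 68%, 66.3%, 66.2% and 69.2% of contrast cells held at least 3 UMIs of Irf4, Myc, Tnfrsf4 and Tnfrsf9. A further contrast, chosen after the data were seen, was both depth-matched and activated by that count. Scrublet marked 14 of 127 members (11%) as possible doublets, against 4.61% of the gate.

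Tbx21 was found more often where Il12rb2 was. Among cells within the other limits, 9.84%, 14.9%, 10.7% and 8.4% of cells with no Il12rb2 UMI had Tbx21. The share was 15.3%, 22.6%, 18.6% and 18.9% at 1 UMI of Il12rb2, and 24.4%, 31%, 23.7% and 37% at 2 or more. These shares rose with the Il12rb2 count in every library. After thinning each cell to 2000 UMIs, 4.35%, 5.51%, 4.17% and 2.26% of cells without Il12rb2 had Tbx21. At 1 UMI of Il12rb2 it was 4%, 10.6%, 6.2% and 7.02% (7, 5, 8 and 4 cells), so in the female knockout library the share was then below that of cells without Il12rb2. At 2 or more Il12rb2 UMIs the thinned counts were 6 of 38, 1 of 6, 2 of 15 and 1 of 5 cells, which rest on 10 cells in all.

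Members formed 0.747%, 1.53%, 0.516% and 0.608% of the gate. The exact 95% binomial intervals, which cover counting error only, left the female wild-type library apart from both male libraries (the interval bounds were 1% to 2.23% in that library, 0.353% to 0.727% in the male knockout and 0.401% to 0.883% in the male wild-type library). The share was 0.631% ± 0.164 (SD, n = 2) under the knockout label and 1.07% ± 0.65 (SD, n = 2) under the wild-type label. A two-sided exact permutation test gave p = 0.667, and 2 libraries against 2 cannot give less than 0.33. Without the female wild-type library the difference turned from -0.436 to 0.0235 percentage points (knockout minus wild-type). With cells thinned to 2000 UMIs, 10 of the 13475 cells still in the gate passed and the difference was 0.0318 points.

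The Il12rb2+Tbx21+ cells shared a high level of GBPs and immunity GTPases. In all, 12 of 16 tested genes of that list rose and none fell, with Gbp5 set aside because it was proposed as a marker from these data. The median log2 fold change of the list was 0.81, against -0.05 over all genes. Among all 9439 genes tested, leaving out the genes of the rule and the 3 proposed markers, 216 (2.29%) were higher in members and 294 (3.11%) were lower at an adjusted p under 0.05, by edgeR's quasi-likelihood test on summed UMIs with library as a block. The lists were drawn up with earlier results of these data known, so a count is a description of the list.

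Gbp2 (chromosome 3), a GBP that coats pathogen vacuoles, stood at 1671, 2150.2, 1396 and 1537 CPM in members and at 712, 692, 646 and 511 in contrast cells. The lowest library of members was above the highest of contrast cells, as for 5.82% of the 9439 genes tested. The log2 fold change was 1.34 ± 0.06 (SE), an adjusted p of 9.30e-100, and it reached 2.01 ± 0.07 (SE) against depth-matched cells, where Gbp2 stood at 478, 463, 334 and 359. It was counted in 118 of 127 members and 346 of 635 depth-matched cells.

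Iigp1, an immunity-related GTPase that disrupts parasite vacuoles, stood at 877, 895, 667 and 714 CPM in members and 429, 384, 412 and 258 in contrast cells. Its log2 fold change reached 1.05 ± 0.08 (SE) at an adjusted p of 3.52e-40, and 2.00 ± 0.10 (SE) against depth-matched cells. The groups of libraries did not overlap.

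Igtp, another such GTPase, stood at 570.4, 698, 374 and 536 in members and 252, 257, 247 and 199 in contrast cells, all in CPM. Members differed by log2 1.13 ± 0.09 (SE) at an adjusted p of 1.90e-36. Gbp6 stood at 259.9, 298, 245 and 281 in members and 109, 111, 109 and 80.3 in contrast cells, with a log2 fold change of 1.36 ± 0.11 (SE) and no overlap between libraries.

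Gbp4 and Gbp7 rose by log2 0.88 and 0.70, and Gbp3, Gbp8, Irgm1, Irgm2, Tgtp1 and Tgtp2 by 0.68 to 1.06. Tgtp1 and Tgtp2 are near-identical copies whose reads could be split by counting, and Gbp6 with Gbp10 and Gbp2 with Gbp2b are close relatives. Another 4 listed genes were tested and not called: Gbp9 at a log2 fold change of 0.39, Gbp10 at 0.78, Gvin1 at 0.68 and the predicted gene Gm4951 at 0.43. Gbp2b had 1 UMI in members and was not tested.

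**Figure D1:**
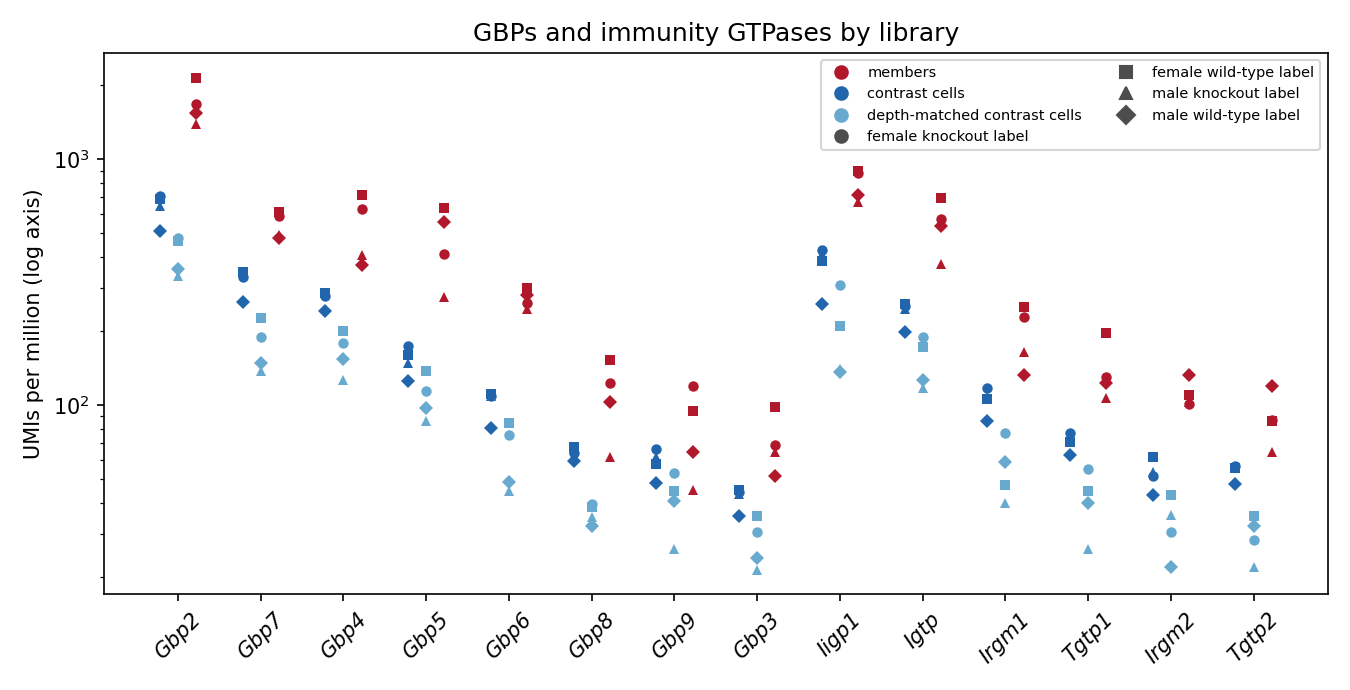
CPM of 14 GBPs and immunity GTPases (vertical axis, logarithmic) in members, contrast cells and depth-matched contrast cells. Each point is 1 library; for Gbp2 the lowest member library is at 1396, the highest of contrast cells at 712, and depth-matched cells lie lower still.

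The size of these differences depended on which contrast cells were used. Against depth-matched cells 14 of 15 tested genes of the list were higher with a median log2 fold change of 1.71, beside 274 of 6124 genes (4.47%) called higher and 184 (3.0%) lower in that fit. Against activated, depth-matched cells all 13 tested were higher with a median of 1.98. In this last fit 309 of 6056 genes (5.1%) were called higher and 164 (2.71%) lower, and the median over all genes was 0.01. Gbp9 passed in both of these fits, at log2 0.92 and 1.24. Chosen after the data were seen, removing the 14 members and 946 contrast cells with a UMI of an NK, gamma-delta or CD8 marker left 420 called genes.

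The high level was carried by most members and not by a few. Each cell's UMIs of 18 listed GBPs and GTPases, Gbp5 included, were expressed per 10000 UMIs of that cell. The median was 60.2, 71.5, 31.8 and 53.3 in the members of the 4 libraries, and 6.54, 6.16, 4.37 and 4.55 in depth-matched cells. No UMI of these genes was found in 1 of 127 members, against 100 of 635 depth-matched cells. Of the members, 124 (97.6%) were above the median of the depth-matched cells, while 86 (13.5%) of the depth-matched cells were above the median of the members. The level itself varied widely among members, from 0 to 247, with quartiles of 25 and 81.4.

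**Figure D2:**
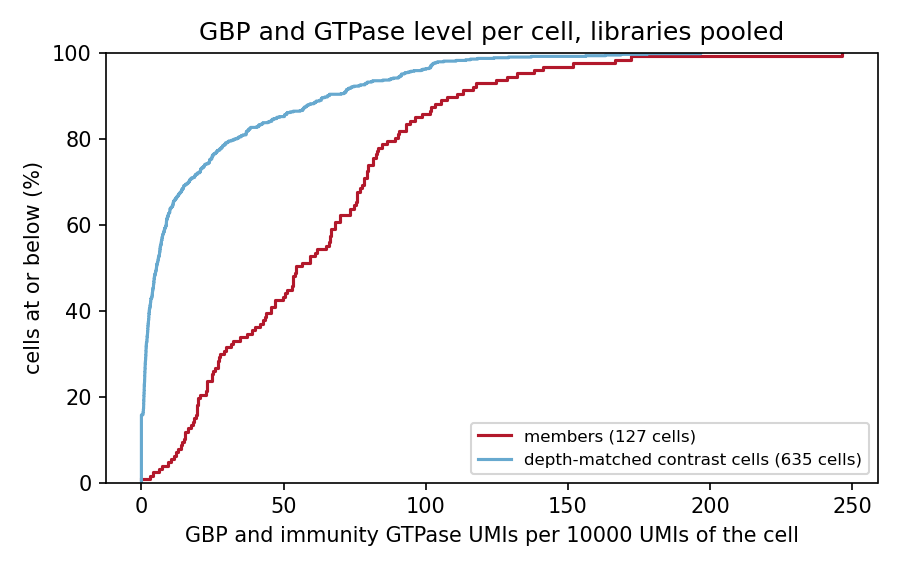
Cumulative share of cells (vertical axis, percent) by their UMIs of 18 GBPs and GTPases per 10000 UMIs (horizontal axis), for 127 members and 635 depth-matched contrast cells with the libraries pooled. The medians are 54.3 and 5.29, and the upper tail of the contrast cells reaches into the range of the members.

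The promoters of these genes are shown because 12 genes of the family were called higher. The forms searched on both strands were TTCNNNGAA, the gamma-activated site, and GAAANNGAA, a core of the sites bound by interferon regulatory factors, within 250 bases before to 50 bases after the start (RefSeq, build GRCm38.p6). Of the 12 genes called higher and Gbp5, 9 had a promoter in the table. All 9 held the second form and 6 (66.7%) held the first. Over all 27025 genes with a promoter the shares were 9.76% and 9.55%, and among the 7455 tested genes that had one, 8.81% and 8.34%. Over all 11 listed genes with a promoter, called or not, 11 held the second form and 7 (63.6%) the first. Among all genes higher in members, with the proposed markers but not the genes of the rule, the shares were 18.5% and 14.5%, and among those lower 14.5% and 8.6%. A match is a run of letters and not a measured site, and matches of the 2 forms were counted separately where they overlapped. The T-box half-site TCACACCT was in none of the 9, and in 1.48% of all genes' promoters. The form TGANTCA, bound by AP-1, was in 2 of the 9 (22.2%) and in 8.97% of all genes' promoters. The 250 bases before the start are given 5′ to 3′, with both forms in capitals.
Gbp2 (chr3:142620413-142620662, plus strand): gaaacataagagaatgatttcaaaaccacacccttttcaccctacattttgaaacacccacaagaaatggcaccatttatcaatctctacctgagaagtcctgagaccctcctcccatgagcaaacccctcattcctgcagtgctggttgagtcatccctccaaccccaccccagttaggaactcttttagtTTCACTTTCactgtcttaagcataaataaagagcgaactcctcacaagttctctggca
Gbp5 (chr3:142496684-142496933, plus strand): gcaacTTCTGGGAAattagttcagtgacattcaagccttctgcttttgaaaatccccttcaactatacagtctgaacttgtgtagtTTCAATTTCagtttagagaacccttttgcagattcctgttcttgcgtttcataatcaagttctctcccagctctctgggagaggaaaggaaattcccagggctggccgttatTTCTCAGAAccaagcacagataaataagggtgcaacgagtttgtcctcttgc
Igtp (chr11:58199306-58199555, plus strand): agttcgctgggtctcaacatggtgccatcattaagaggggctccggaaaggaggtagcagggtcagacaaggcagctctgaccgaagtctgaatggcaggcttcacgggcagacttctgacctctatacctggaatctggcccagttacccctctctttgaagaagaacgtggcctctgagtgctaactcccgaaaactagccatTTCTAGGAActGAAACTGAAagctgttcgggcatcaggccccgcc
Irgm2 (chr11:58214727-58214976, plus strand): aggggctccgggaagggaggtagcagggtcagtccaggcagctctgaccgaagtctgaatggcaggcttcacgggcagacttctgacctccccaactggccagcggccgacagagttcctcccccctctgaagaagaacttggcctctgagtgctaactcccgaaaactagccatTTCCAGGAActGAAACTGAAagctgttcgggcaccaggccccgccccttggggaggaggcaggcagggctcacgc

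Gbp5 holds both forms in this stretch, Igtp and Irgm2 hold them side by side, and Gbp2 holds the second form alone, 58 bases before the start. The Il12rb2 promoter held 1 match of the first form, 123 bases before the start, and the Tbx21 promoter held neither.
Il12rb2 (chr6:67376189-67376438, minus strand): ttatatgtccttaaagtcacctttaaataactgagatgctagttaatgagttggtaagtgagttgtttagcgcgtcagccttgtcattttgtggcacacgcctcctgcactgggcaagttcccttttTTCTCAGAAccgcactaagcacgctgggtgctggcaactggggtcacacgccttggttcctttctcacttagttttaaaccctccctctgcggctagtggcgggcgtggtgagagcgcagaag

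The 3 proposed markers are described without a test against contrast cells. Gbp5, a GBP tied to inflammasome assembly, stood at 412, 632, 274 and 555 CPM in members and 174, 160.3, 149 and 125 in contrast cells. Ly6c1, a surface protein of the Ly6 family, stood at 282, 388, 203 and 194 against 76.4, 77.9, 73.9 and 66.4. Filip1l stood at 65, 54.9, 58 and 54.9 against 44.1, 28.7, 39.2 and 28.1. For all 3 genes the libraries of members lay above those of contrast cells, which the choice of markers from these data favours, beside 549 of 9439 genes (5.82%). Detection was far from complete: 103 of 127 members had a Gbp5 UMI, 64 had Ly6c1 and 33 had Filip1l. Ly6c1 has a near-identical neighbour, Ly6c2, which was at 0 UMIs in members, so reads that fit both could be lost. In the 68 cells of other types, whose median depth was above that of members in each library (9992.5 to 16519 UMIs), 52.9% had a Gbp5 UMI, 16.2% Filip1l and none Ly6c1, which allows up to 4.41%. By library the count of 0 allows 11.5%, 17.6%, 27.3% and 21.4% for Ly6c1, against 21.6%, 25.3%, 23.8% and 27.6% of gate cells, so in the male knockout library the limit is above that share.

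Of 16 tested receptors and signal transducers of the type 1 pathway, Ly6c1 set aside, 4 rose and none fell against all contrast cells. Against depth-matched cells 8 of 12 rose with a median of 0.65, and against activated, depth-matched cells 7 of 12 with a median of 0.71. Stat3, a transducer of IL-6 family cytokines, rose by log2 0.72 ± 0.13 (SE), and Il2rb, the beta chain of the IL-2 receptor, by 1.24 ± 0.24 (SE). Il2ra, its alpha chain, rose by 0.53 ± 0.09 (SE).

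Stat4, the transducer of IL-12, gave a log2 fold change of -0.21 ± 0.18 (SE), with an adjusted p of 0.694 and was counted in 40 members. Ifngr1, the ligand-binding chain of the interferon-gamma receptor, gave 0.02 against all contrast cells (adjusted p = 0.973) and 1.14 ± 0.16 (SE) against depth-matched cells (adjusted p = 1.57e-06). Socs1, the feedback inhibitor of JAK and STAT signalling, gave 0.30 (adjusted p = 0.0779) and 0.91 (adjusted p = 7.18e-07) in the same 2 fits. Il12rb1, the other chain of the IL-12 receptor, had 2 UMIs in members, and Il18r1 and Il18rap had 2 each.

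Among type 1 transcription factors 3 of 10 tested rose and 1 fell. Irf8 (ENSMUSG00000041515, chr8:120736358-120756694), an interferon-inducible partner of IRF1, stood at 559.5, 628, 426 and 507 CPM in members and 186, 189, 171 and 129.8 in contrast cells. The libraries did not overlap, members differed by log2 1.60 ± 0.09 (SE) at an adjusted p of 1.06e-68, and 112 of 127 members had a UMI. Irf1, an interferon-induced transcription factor, stood at 361, 404, 258 and 258 against 185, 189.7, 181 and 146, a log2 fold change of 0.80 ± 0.10 (SE) that grew to 1.61 ± 0.12 (SE) against depth-matched cells. Bhlhe40, a factor needed for cytokine production by T helper cells, rose by 0.48 ± 0.11 (SE), which was no longer called against activated, depth-matched cells (0.22, adjusted p = 0.382). Txk, a Tec-family kinase, fell by 0.67 on the log2 scale in the main comparison and gave 1.19 ± 0.28 (SE) against activated, depth-matched cells, the opposite direction. Runx3 gave 0.23 (adjusted p = 0.791) and was counted in 20 members. In the family of interferon regulatory factors, Irf4 rose by 0.59 ± 0.07 (SE) beside Irf1 and Irf8, 3 of 11 tested.

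Type 1 effector genes were low in both classes, and 1 of 11 tested rose and 1 fell. Ccl4, a chemokine of activated T cells, stood at 0, 27.5, 0 and 29.1 CPM in members and 52.2, 69, 26.9 and 69.4 in contrast cells, and its log2 fold change reached -2.03 ± 0.30 (SE) at an adjusted p of 4.06e-09. Only 3 members held its 16 UMIs. It was not called by DESeq2 (adjusted p = 0.0948), with no library block (adjusted p = 0.13) or with at least 3 Il12rb2 UMIs (-0.94, adjusted p = 0.208). Ccl5 was called higher at 1.13, but 51 of its 58 UMIs came from 1 cell of the female knockout library. The 25 UMIs of Gzma, a granzyme that is also 1 of the 9 NK markers, lay in 1 cell of that library, where the 9 NK markers summed to 148 CPM in members, and the other 3 libraries had none of them; in contrast cells the sum was 0.658 to 6.55. The median of the list was a log2 fold change of -0.57.

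Among called genes with at least 20 CPM and the same sign in every library, the 12 largest rises were those of Irf8 and 11 others. Cxcl10, a chemokine ligand of CXCR3, stood at 224, 294, 41.9 and 278 CPM in members and 52, 52.2, 35.5 and 47.8 in contrast cells. The male knockout library was the low one, close to its contrast cells. Members differed by log2 2.03 ± 0.14 (SE) at an adjusted p of 3.86e-43, and 236 UMIs came from 35 members, with 27 in the highest cell. The adjusted p of Cxcl10 was 0.0037 by DESeq2 and 0.000796 with no library block.

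Ly6a (ENSMUSG00000075602, chr15:74994877-74998031), the interferon-inducible surface protein Sca-1, stood at 1689, 1683, 1725 and 1524 in members and 636, 542, 629 and 441 in contrast cells, in CPM. It was counted in 122 of 127 members, and its log2 fold change reached 1.52 ± 0.06 (SE) at an adjusted p of 2.08e-124. The adjusted p of Ly6a was 9.63e-89 by DESeq2 and 4.82e-08 with no library block.

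Icam1, an adhesion molecule, stood at 68.6, 259, 54.8 and 87.2 against 42, 35.3, 39.7 and 33.4 CPM, with the female wild-type library far above the others, and gave a log2 fold change of 1.49 ± 0.18 (SE). It was 0.80 without that library and was not called by DESeq2 (adjusted p = 0.127). Serpinb9, an inhibitor of granzyme B, gave 1.63 ± 0.19 (SE), Lif, a cytokine of the IL-6 family, 1.64 ± 0.26 (SE), and Atf3, a stress-induced transcription factor, 1.58 ± 0.11 (SE). Tbkbp1, a partner of the kinase TBK1, gave 2.45 ± 0.40 (SE), the largest of the named rises, from 32 UMIs in 25 cells. Ube2l6, the conjugating enzyme of ISG15, gave 1.71 ± 0.41 (SE). Gsap, Frmd4b and AA467197 rose by 1.61, 1.59 and 1.53. The sign in every library was part of how the 12 were chosen. Serpinb9 fell to 0.80 with 1 depth-matched contrast cell per member and was not called there (adjusted p = 0.0577). Ube2l6 was no longer called without the female wild-type library (log2 1.30, adjusted p = 0.219), nor AA467197 without the male knockout library (1.23, adjusted p = 0.0944). With no library block Ube2l6 and Frmd4b were not called (adjusted p = 0.13 and 0.0693), and among members with at least 3 Il12rb2 UMIs neither were Ube2l6 (adjusted p = 0.501), Gsap (0.124) or AA467197 (0.0528).

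Type I interferon-stimulated genes did not move as 1 group against all contrast cells. Of 28 tested, 3 rose (Ly6a, Bst2 and Ifi47) and 6 fell, among them Ifit3 at 3.61, 0, 22.6 and 6.46 CPM in members and 41.4, 27.3, 32.8 and 15 in contrast cells (log2 fold change -1.78 ± 0.40 (SE), adjusted p = 0.000394). Slfn5 gave -1.82 ± 0.33 (SE) and Oasl2 -1.19 ± 0.35 (SE). Against depth-matched cells Slfn5 was tested and not called, and the other genes that had fallen did not pass the filter on low counts. Against depth-matched cells 11 of 17 tested rose and none fell, with a median of 0.95, beside 4.47% of all genes called higher. Against activated, depth-matched cells 13 of 15 tested rose and none fell, with a median of 1.34, and the 6 genes that had fallen did not pass the filter on low counts there. In that fit Zbp1, a nucleic acid sensor, gave 1.90 ± 0.21 (SE) and Isg15, a ubiquitin-like modifier, 1.36 ± 0.24 (SE).

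Antigen presentation genes of MHC class I rose in part. In the main comparison 5 of 18 rose and none fell: B2m, the light chain, by log2 0.35 ± 0.06 (SE), Tap1, a peptide transporter subunit, by 0.75 ± 0.11 (SE), Nlrc5, the class I transactivator, by 0.89 ± 0.18 (SE), and H2-D1 and Psme2 by 0.24 and 0.28. Against activated, depth-matched cells 12 of 18 rose, with a median of 0.60, but Psme2 was not called there.

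**Figure D3:**
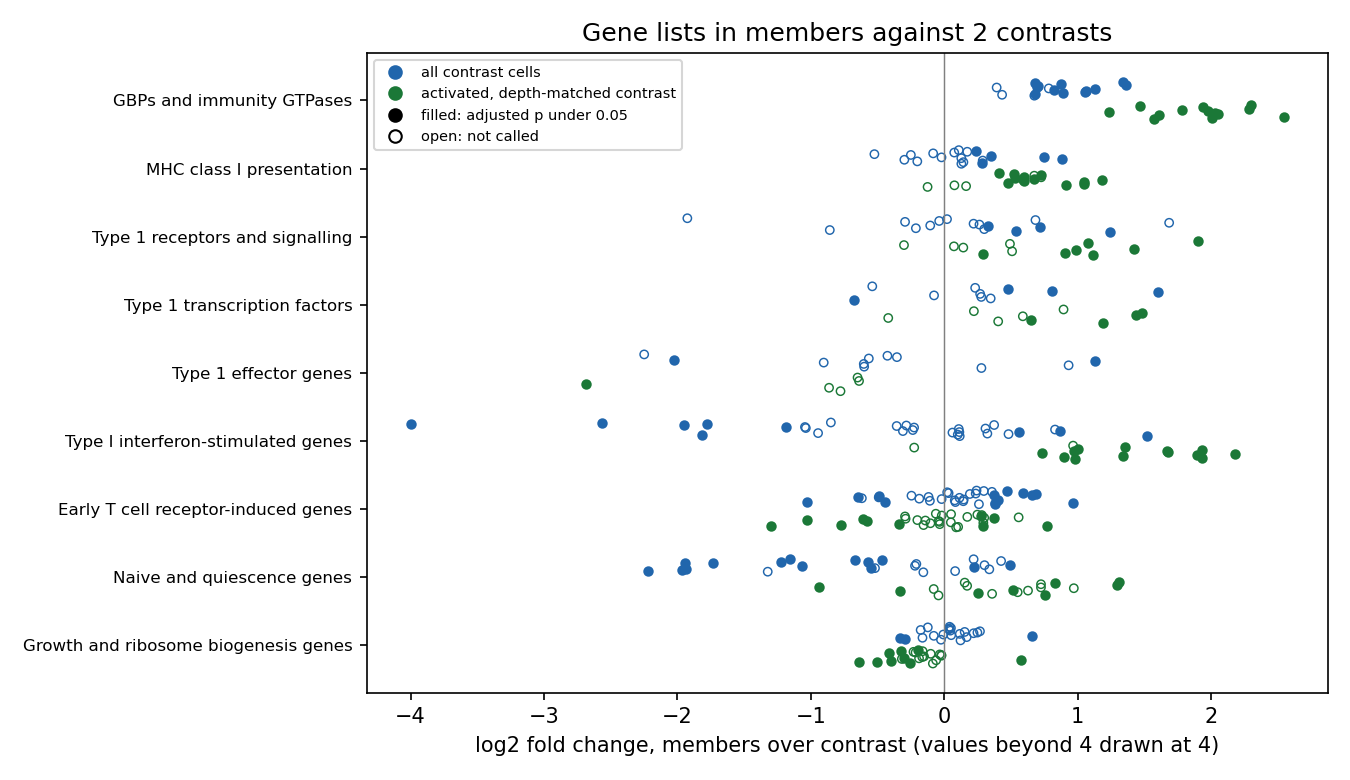
Log2 fold change of members over contrast cells (horizontal axis) for each tested gene of 9 lists, against all contrast cells and against activated, depth-matched contrast cells. The GBP list lies to the right of 0 in both, while the naive list lies mostly left of 0 in the first and mostly right of it in the second.

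Early T cell receptor-induced genes split. Of 33 tested 9 rose and 4 fell. Cd69, the early activation antigen that holds T cells in tissue, stood at 1845, 2201, 1441 and 1634 CPM in members and 1078, 1029, 1089.6 and 1113 in contrast cells, a log2 fold change of 0.66 ± 0.06 (SE), with an adjusted p of 5.45e-26. Cish, a STAT5 target, rose by 0.97 ± 0.11 (SE) and Irf4 by 0.59. Crem, a cAMP-responsive repressor, rose by 1.23 ± 0.11 (SE). In contrast, Spry1, a feedback inhibitor of MAP kinase signalling, gave -1.03 ± 0.17 (SE), and Dusp2, Tnfrsf4 and Tnfrsf9 gave -0.45, -0.49 and -0.65. Against depth-matched cells 9 of 31 rose and 4 fell, the same 4 genes, with Spry1 at -1.40 and Dusp2 at -0.47. Against activated, depth-matched cells 4 of 31 rose (Irf4, Cd69, Pim1 and Cish) and 6 fell, with a median of -0.03. Tnfrsf4 and Tnfrsf9 are 2 of the 6, and since their UMIs helped to choose those contrast cells, their falls there are favoured by the choice. The other 4 were Spry1 (-1.30), Dusp2 (-0.77), Nfkbid (-0.57) and Bcl2a1b (-0.34).

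Of 10 tested follicular helper genes 1 rose and 2 fell (Il6ra and Slamf6), with a median log2 fold change of -0.25. The rise was that of Icos, a costimulatory receptor, which gave 1.03 ± 0.09 (SE), from 257, 210.0, 246 and 177 CPM in contrast cells to 581, 518, 435 and 362 in members. Against depth-matched cells Icos again was the 1 rise of 7 tested, and Slamf6 and Tnfsf8 fell.

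Of 9 tested type 2 genes 2 rose and 1 fell, of 2 type 17 genes none was called and of 8 regulatory T cell genes 1 rose. Gata3, the type 2 master factor, rose by 0.95 ± 0.19 (SE) (adjusted p = 6.35e-05), Il4ra fell by 1.07 on the log2 scale but was not called against depth-matched cells (-0.13, adjusted p = 0.877), and Il17a and Il17f had 0 UMIs in members. Ctla4, an inhibitory receptor, rose by 1.03 ± 0.25 (SE), and Crem, also of the type 2 list, is given above. Of 22 growth genes 1 rose and 2 fell, against 1 and 8 in the activated, depth-matched fit, and Odc1, the polyamine synthesis enzyme, rose by 0.66 ± 0.07 (SE) while Hspd1 and Hspe1, the mitochondrial chaperonins, gave -0.33 and -0.29.

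Naive and quiescence genes were lower in members in the main comparison, with 12 of 24 falling and 2 rising. Il7r, the IL-7 receptor, stood at 32.5, 19.6, 80.6 and 29.1 CPM in members and 115, 123, 154 and 217 in contrast cells (log2 fold change -1.94 ± 0.18 (SE)). S1pr1, the egress receptor, gave -1.73 ± 0.25 (SE) and Tcf7, the factor TCF-1, -1.22 ± 0.16 (SE). Satb1, a chromatin organiser, rose by 0.49 ± 0.06 (SE).

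Against depth-matched cells 4 of 20 tested naive genes rose and 2 fell (Il7r and Tcf7), with a median of 0.01, and S1pr1 was not called. The lower level did not hold against activated, depth-matched cells either, where 6 of 18 tested naive genes rose and 2 fell. Klf2, the factor that drives S1pr1, was higher in members there (0.83 ± 0.14 (SE), adjusted p = 5.15e-05). Il7r and S1pr1 gave 0.97 and 0.73, neither called. Tcf7 fell in each of these fits, by 0.94 on the log2 scale against activated, depth-matched cells. The summed level of all 24 genes was 6419, 5885, 5761 and 5396 CPM in members and 5759, 5621, 5612 and 5340 in contrast cells, higher in members in each library. Btg1, an abundant antiproliferative gene of the list, rose (0.23 ± 0.07 (SE)).

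The largest falls among named genes had few UMIs in members. Slamf6, a receptor of stem-like T cells, stood at 18.1, 0, 16.1 and 12.9 CPM against 67.2, 87, 79.1 and 62.3 (log2 fold change -2.64 ± 0.29 (SE)), and at -0.94 ± 0.40 (SE) against activated, depth-matched cells (adjusted p = 0.181). Arhgef18 gave -2.90, Prr13 -2.30, Cd9 -2.16, Tbc1d4 -1.97 and Tmem71 -1.97, each with 5 to 16 UMIs in all members. Against activated contrast cells Arhgef18 was at -0.79 (adjusted p = 0.611) and Tmem71 at -0.07 (adjusted p = 0.971), and Tmem71 was not called against depth-matched cells either (-1.08, adjusted p = 0.101). Cd9 was not called against activated, depth-matched cells (-1.38, adjusted p = 0.0571), nor Prr13 and Tbc1d4 among members with at least 3 Il12rb2 UMIs (adjusted p = 0.242 and 0.074). Rflnb (-2.22), Cnp (-2.06), Pik3ip1 (-1.96) and Ifit1bl1 (-1.95) turned positive against activated contrast cells, at 0.62, 0.54, 0.18 and 0.71 with none called. Rflnb, Cnp and Pik3ip1 were not called against depth-matched cells either (adjusted p = 0.435, 0.219 and 0.464), nor Ifit1bl1 without the female knockout library (0.0514). Of 9 B cell markers 2 could be tested. Ighm, an immunoglobulin heavy chain gene, was lower in members, at 10.8, 31.4, 12.9 and 16.1 CPM against 163, 26.1, 21.6 and 26.7 in contrast cells, with the female knockout library of contrast cells far above the rest. Cd74 was not called (0.19, adjusted p = 0.914), and neither gene was called against depth-matched cells. The sum of the 9 markers was 39.7, 51, 32.2 and 16.1 CPM in members and 189, 36.2, 33.3 and 39.1 in contrast cells, so the female wild-type library went the other way. Cd79a, Cd79b and Ms4a1 were at 0 in members, and the part of these markers in the falls was not tested. The sum of 9 erythroid markers was 0 to 27.5 in members and 6.98 to 193 in contrast cells, highest in the female wild-type library in both classes.

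The split between calls depended on the scaling: 271 genes were higher and 241 lower with relative log expression factors, and 285 and 241 with total counts. DESeq2, which differs in its test as well as its scaling, called 164 higher and 99 lower. Without 1 library at a time between 310 and 380 genes were called.

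The 2 genes of the rule could be separated by looking at cells that held only 1 of them. In cells with Tbx21 and no Il12rb2 UMI (431, 184, 508 and 288 cells), Irf8 stood at 589, 652, 559 and 534 CPM. In cells with 2 or more Il12rb2 UMIs and no Tbx21 (130, 58, 103 and 46 cells), it stood at 384, 402, 347 and 257. The first range lies above the second, and members, with both, were at 426 to 628, below the cells with Tbx21 alone in each library.

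Cd69 was also higher with Tbx21 alone than with Il12rb2 alone in every library. It stood at 1858, 1782, 1880.3 and 2148 CPM with Tbx21 alone, 1319, 1220.0, 1346 and 1162 with Il12rb2 alone and 1441 to 2201 in members.

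Gbp2 and Iigp1 were ordered otherwise. Gbp2 stood at 1083, 1011, 923 and 617 CPM with Tbx21 alone, 1534, 1495, 1175 and 1145 with Il12rb2 alone and 1671, 2150.2, 1396 and 1537 with both. Within each library the cells with both held the most. Iigp1 stood at 516, 346, 413 and 241 with Tbx21 alone, 551, 447, 635 and 369 with Il12rb2 alone and 877, 895, 667 and 714 with both, again the highest of the 3 in every library. The sum of the 18 listed GBPs and GTPases was 4050.4, 3512, 3615 and 2549 with Tbx21 alone, 4748, 4253, 4332 and 3501 with Il12rb2 alone and 5888, 7074, 4517 and 5267 with both. The 2 single-gene classes had unlike minimums, 1 UMI of Tbx21 and 2 of Il12rb2. At 1 UMI of Il12rb2 and no Tbx21 the sum was 3977, 3314, 4008 and 2336, below Tbx21 alone except in the male knockout library. In that class Gbp2 was at 1180, 909, 1144 and 650, above Tbx21 alone except in the female wild-type library. Other genes of the family did not share 1 order. Gbp4 stood at 429.8, 369.6, 422 and 313 with Tbx21 alone and 443, 366, 349.9 and 284 with Il12rb2 alone, so it was higher with Tbx21 alone in 3 of 4 libraries. In the male knockout library members were not the highest of the 3 classes for Gbp4, Igtp or Gbp5, at 409, 374 and 274 CPM against 422 with Tbx21 alone for Gbp4, and 405 and 346 with Il12rb2 alone for Igtp and Gbp5. Ly6c1 stood at 148, 146, 146 and 108, 286, 191, 176 and 150.3 and 282, 388, 203 and 194, with members highest in 3 of 4 libraries. These classes were made from UMIs of the same cells, so the values are a description.

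Ifng stood apart from membership. It was at 62.3, 0, 58.1 and 2.06 CPM in cells with 2 or more Il12rb2 UMIs and no Tbx21, so it was higher in both libraries labelled knockout, and at 3.61, 0, 0 and 0 in members. Contrast cells held 2.58, 3.15, 9.58 and 0.787 CPM, and cells with Tbx21 alone 1.55, 5.01, 9.74 and 4.73. The number of cells that carried the Ifng UMIs of these classes was not counted, so few cells may hold them, and the difference was not tested.

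**Figure D4:**
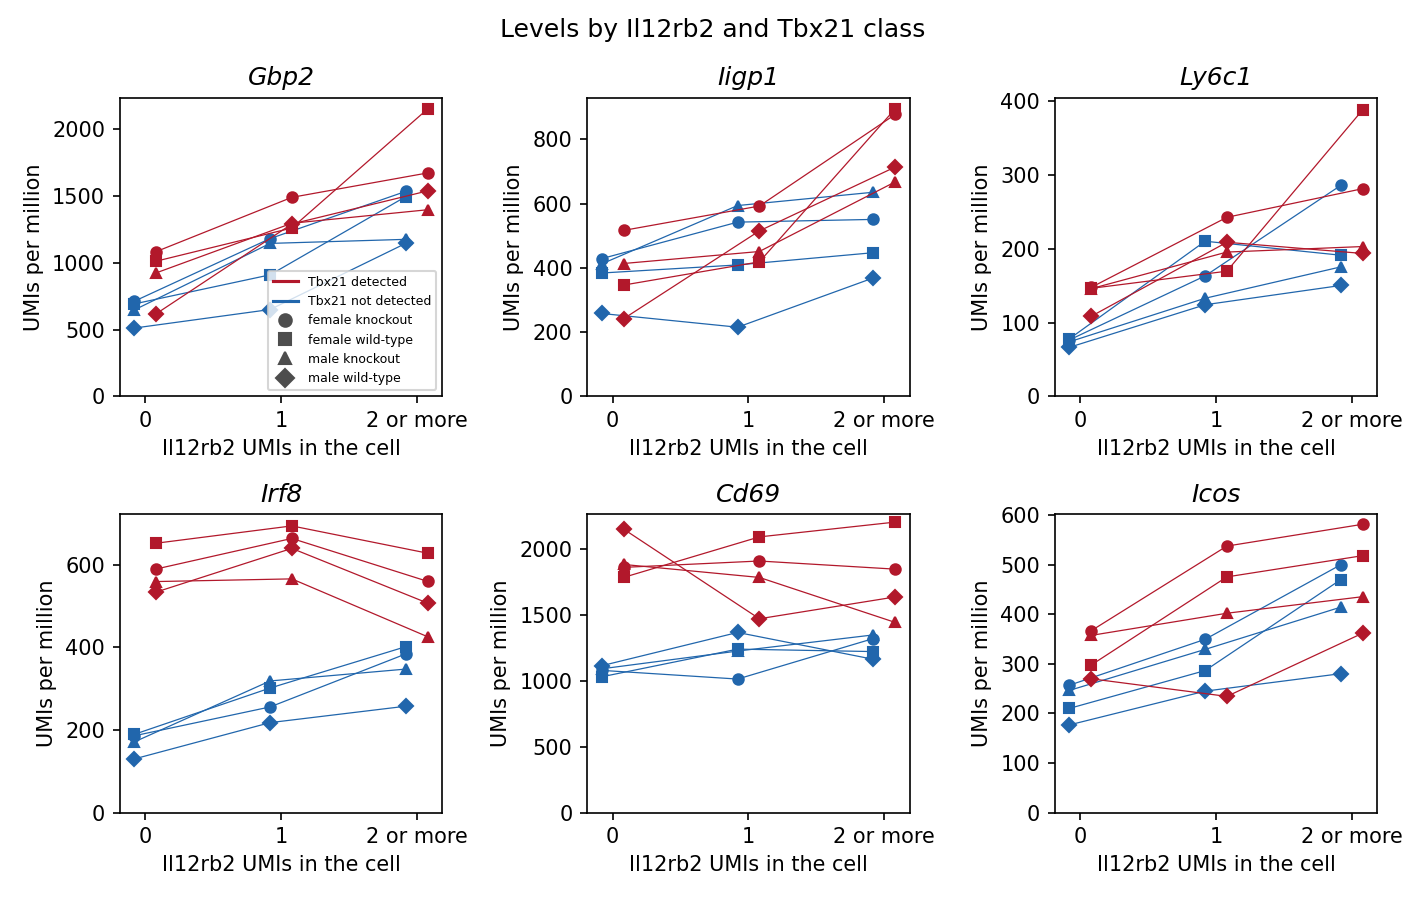
CPM (vertical axes) of 6 genes by the number of Il12rb2 UMIs in the cell (horizontal axes), with and without a Tbx21 UMI; each point is 1 library and lines join its classes. Irf8 and Cd69 separate by Tbx21, while Gbp2 rises along Il12rb2 in both colours.

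With the genes of the rule left out, members were more frequent among the nearest neighbours of members in expression space than among all gate cells. The 3 proposed markers were not left out, and the share of all cells was not matched on depth or activation. Among the 15 nearest neighbours of each member in 30 principal components, 4.36% were members, against 0.701% of all cells, which is 6.21 times as many. By library the share was 3.65%, 4.36%, 3.33% and 6.67%. Even so, 78 of 127 members had no member among their neighbours, and 94.2% of neighbours were activated cells, against 73.7% of all cells.

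Only the limit on Egr3 kept out 13 cells (2, 1, 4 and 6) with Il12rb2 and Tbx21 at the same minimums and 2 or more UMIs of Egr3. Of 2532 genes tested, 1 (0.0395%) was higher in members and 14 (0.553%) were lower. Ccr7, the lymph node homing receptor, stood at 592, 483, 280.5 and 426 CPM in members and 331, 0, 0 and 183 in the Egr3-high cells, a log2 fold change of 1.66 ± 0.40 (SE), with an adjusted p of 0.00708. Among the lower genes Nr4a2, a nuclear receptor gene, gave -2.36 ± 0.34 (SE), Egr1 -2.33 ± 0.34 (SE), Nfkbid -2.26 ± 0.31 (SE), Nr4a3 -1.58 ± 0.26 (SE) and Kdm6b -1.45 ± 0.27 (SE). Egr1 was not called without the male wild-type library (-1.70, adjusted p = 0.173), Nr4a3 without the filter on low counts (adjusted p = 0.171), nor Kdm6b without that filter (adjusted p = 0.402) or without doublets (adjusted p = 0.0654). Egr3 itself set these classes, and a single cell stood for the female wild-type library. No GBP was called. Ccr7 was not called by DESeq2 (adjusted p = 0.0815) or without either knockout library or the male wild-type library, and 6 to 20 genes were called across the settings tried. No member-like cell had 3 or more UMIs of S100a4 and S100a6, and 97 gate cells did, so that comparison could not be made.

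The study's own comparison, by genotype label, was then made within members. Of 3941 genes tested 1 was called (0.0254%), and 172 had an unadjusted p under 0.05. Sp110, a nuclear body protein, had 0, 31, 0 and 25 UMIs in members. It was the only call, with an adjusted p of 0.00178. Contrast cells showed the same split, at 0.369, 98.7, 0.362 and 79.5 CPM, and the test of the difference between members and contrast cells gave an adjusted p of 1. It was not called with relative log expression factors (adjusted p = 0.0742) or by DESeq2, and it did not pass the filter on low counts in the fit at equal cells and depth. That fit called 1 other gene, Gpr183, and leaving out 1 library, which leaves no term for sex, gave 7 to 22 calls.

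The next genes did not pass. Gpr183, an oxysterol receptor that guides T cell position, stood at 404, 196, 239 and 64.6 CPM (log2 fold change 1.34 ± 0.24 (SE), adjusted p = 0.102). At equal cells and depth it gave 1.59 ± 0.27 (SE) at an adjusted p of 0.0111, and it was called in 6 of the 12 other settings. Without the female knockout library it was 0.87 and without the male wild-type library 0.66, neither called (adjusted p = 0.697 and 0.501). Without the female wild-type library it was 2.27 (adjusted p = 3.20e-09) and without the male knockout library 1.65 (adjusted p = 0.000123), both called. Gbp5 stood at 412, 632, 274 and 555, lower in each library labelled knockout than in each labelled wild-type (-0.84 ± 0.17 (SE), adjusted p = 0.249). Gbp2 gave -0.28 ± 0.11 (SE) (adjusted p = 0.996) and Ly6c1 -0.26 ± 0.21 (SE) (adjusted p = 0.996). The simulated recovery at this size was 46% for 2-fold changes among genes above a minimum count, so changes of that size could be missed.

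A genotype difference in members that differs from that in contrast cells was tested as an interaction. Of 9448 genes 7 were called (0.0741%), among them Gbp5, Icam1, Il2, Ccl5, Plac8 and Slamf1. Gbp5 gave a log2 interaction of -0.96 ± 0.18 (SE) (adjusted p = 0.000304), since contrast cells stood at 174, 160.3, 149 and 125, slightly higher under the knockout label. None of the 7 was called by DESeq2 or against depth-matched cells, where Gbp5 gave -0.57 (adjusted p = 0.951). By sex, 4 genes of 3941 were called (0.101%), all on the sex chromosomes: Xist and Tsix in the female libraries, Ddx3y and Eif2s3y in the male ones.

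**Figure D5:**
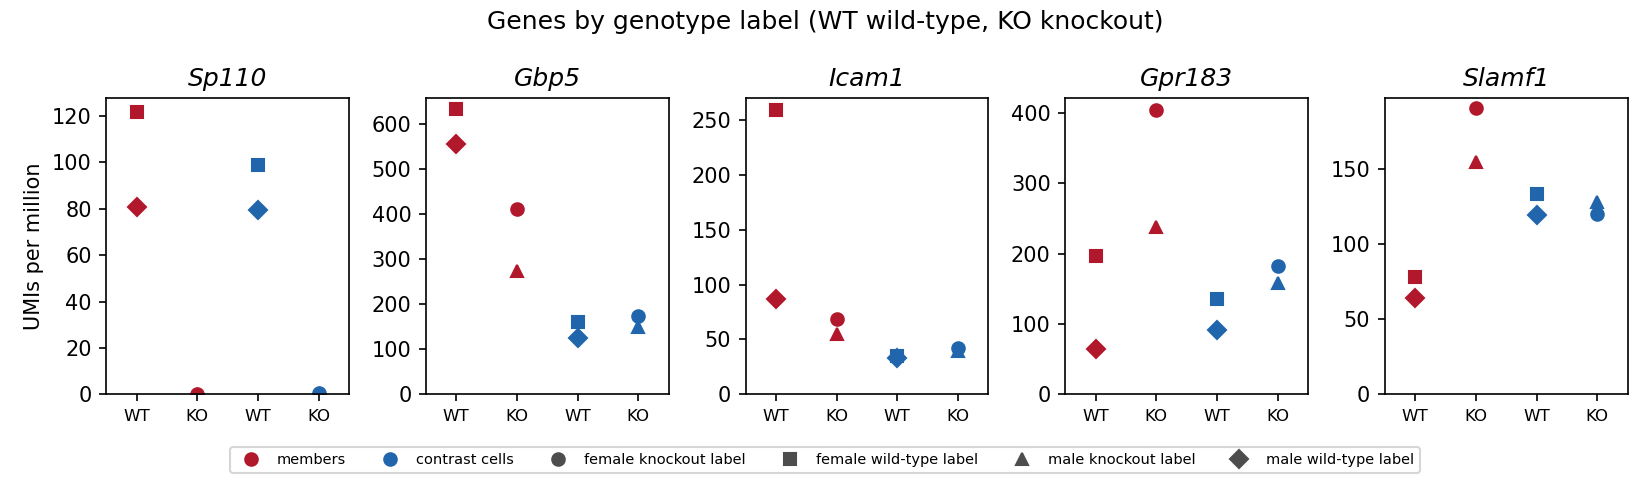
CPM (vertical axes) of 5 genes in members and contrast cells by genotype label (horizontal axes); each point is 1 library. Sp110 is near 0 under the knockout label in both classes of cells, while Gbp5 in members is at 274 and 412 under the knockout label and at 555 and 632 under the wild-type label.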

How the data were processed

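Single-cell RNA libraries were read from the deposited matrices, whose values are UMI counts per gene and barcode. The authors made these counts with Cell Ranger 6.0.2 on mm10 per the submitters' processing notes, and per the file headers with Cell Ranger software version 4. The depth was 28841161 to 55850754 UMIs per library, and intervals and floors cover counting error only. Counts were summed per library and class, since cells are not replicates. Genes passing edgeR's filterByExpr were tested with edgeR 4.0.16 (TMM factors, quasi-likelihood test, Benjamini-Hochberg adjustment at 0.05) with library as a block, or with sex and genotype label as terms. DESeq2 1.42.0, other scalings, filters, contrasts, doublet removal (0.8% per 1000 cells) and leaving out each library were alternatives. On simulated data 75.5% of 2-fold and 99.0% of 4-fold changes were recovered for the contrast, and 46.0% and 77.0% by genotype. Of the simulated calls 4.43% and 2.94% were false for the contrast, and 8.0% and 0.0% by genotype. Changed genes were drawn only from those above a minimum count, and no sex or library difference beyond depth was simulated. Recovery of genes with fewer UMIs was not measured.

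The members and gene lists were chosen with earlier results of these data known. Named genes were the detected members of the type 1 and GBP lists as needed for their counts, the marker genes, and up to 12 of the largest called changes per direction with the same sign in every library and at least 20 CPM. Other genes named were chosen after their values were seen. Nothing in the labels says whether libraries came from separate mice, so p-values cannot be taken to measure the spread between mice. The edgeR dispersions draw on many genes together, so a p-value does not measure the spread of that gene alone between libraries. Coordinates are from GENCODE M21, with 99.8% of gene identifiers found, and promoters are from RefSeq (GRCm38.p6). Of 369 list genes 363 were matched. Some genes that the rules would name are not reported here.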

Additional observations from a re-analysis of the deposited data

Results flagged for a closer look

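For 6 genes described here the difference between genotype labels differed between members and contrast cells, by edgeR's quasi-likelihood interaction test. Gbp5 gave a log2 interaction of -0.96, and was not called without the male knockout library (-0.78, adjusted p = 0.608). Icam1 gave -1.61, which fell to -0.72 without the female wild-type library (adjusted p = 1), the library where it stood at 259 CPM. Slamf1 gave 1.33 and was called only in the fit without the male knockout library when 1 library was left out. Slamf1 is a costimulatory receptor, and stood at 191, 78.5, 155 and 64.6 CPM in members and 120.3, 133, 128 and 119 in contrast cells.

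The other 3 rested on few cells. Ccl5 gave 12.69 from 1, 0, 1 and 0 cells with a UMI in the 4 libraries. Plac8 gave 11.59 from 18 UMIs in 2 cells, 17 of them in 1 cell. Il2 gave -2.07 from 0, 3, 4 and 1 cells with a UMI, with 52 of its 79 UMIs in 1 cell of the female wild-type library.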

How the results depend on the processing

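Against contrast cells 510 genes were called. DESeq2 called 263, the fit with no library block 297, 1 matched contrast cell per member 207, members with at least 3 Il12rb2 UMIs 337, and leaving out 1 library 310 to 380. For the 24 largest changes among called genes of at least 20 CPM with 1 sign in every library, 343 of the values under other settings that gave an adjusted p kept direction and call, 27 lost the call and 5 reversed: against activated contrast cells Rflnb (0.62), Cnp (0.54), Pik3ip1 (0.18) and Ifit1bl1 (0.71), and Cnp (0.88) against activated, depth-matched cells. The cause was not tested. Against Egr3-high cells 15 were called, 6 without a filter on low counts, 8 without doublets and 10 to 17 without 1 library. By genotype label 1 was called, 0 with relative log expression factors or DESeq2 (152 and 8 at an unadjusted p under 0.05), 18 without a filter, 13 without doublets, 1 at equal cells and depth (Gpr183, not Sp110), 9 without cells holding NK, gamma-delta or CD8 markers, and 7 to 22 without 1 library. By sex 4 were called, 2 with relative log expression factors or DESeq2, 23 without a filter, 24 without doublets and 9 to 23 without 1 library. The interaction gave 7, 0 by DESeq2 or with depth-matched cells (122 and 259 unadjusted), and 3 to 7 without 1 library. In it Il2 turned to 0.33 without the female wild-type library and ranged from -13.10 to 0.33 without 1 library, and Plac8 to -0.44 without the male knockout library. The share difference, -0.436 points, turned to 0.0318 when thinned, and ranged from -0.896 to 0.0235 (without the female wild-type library) without 1 library. The S100a4 and S100a6 comparison and its alternatives were not run because no cell qualified. The genotype fit pairs libraries by sex, and the same fit without the sex term also called 1. Detection limits are those of 127 cells: a gene at 0 UMIs may reach 2.6 CPM.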

Other observations

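Some genes of other lists also moved between members and contrast cells. Trdc, a gamma-delta T cell receptor constant region, was called higher in members at a log2 fold change of 1.68, from 18 UMIs in 5 cells, with 9 in the highest, and ranged from -0.48 to 2.06 without 1 library. The 7 gamma-delta markers summed to 0 to 58.9 CPM in members and 4.94 to 10.1 in contrast cells. With the cells holding NK, gamma-delta or CD8 markers removed, 420 genes were called, 385 of them also called with those cells kept. Slc7a1, an arginine transporter, rose by 0.52 ± 0.09 (SE) and Hk2, a hexokinase, gave -0.87 ± 0.25 (SE). Cdk6, a cyclin-dependent kinase of the G1 phase, rose by 0.64 ± 0.17 (SE), and Ccnd3, a D-type cyclin, gave -0.86 ± 0.23 (SE), and neither was called against depth-matched cells (0.58, adjusted p = 0.0594, and -0.24, adjusted p = 0.739). Of 14 memory and cytoskeleton genes tested, none rose and 4 fell, among them the S100 gene S100a10 (-1.06) and the integrin gene Itga4 (-0.98). Against depth-matched cells none of the 8 tested was called, with a median of -0.01, nor against activated, depth-matched cells, with a median of 0.18.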
